A study of Mus musculus with 12 samples.

Results

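The interleukins and their receptors were followed in RNA sequencing libraries of mouse spinal cord. The family was taken by name, as every protein-coding gene whose symbol begins with Il and a digit, and held 84 of the 54532 genes in the deposited count table. By general knowledge of their roles, 37 of the genes encode ligands, 38 encode receptor subunits, 6 encode decoys or antagonists (Il1rn, Il1f5, Il1r2, Il13ra2, Il18bp and Il22ra2) and 3 are neither interleukins nor their receptors. Those 3 are Il4i1, an amino acid oxidase, and Il1rapl1 and Il1rapl2, receptor-like proteins of synapses. The 84 genes carried 82 symbols, as Il11ra2 had 3 entries, 2 of them on unplaced scaffolds. The mice were C57BL/6, 2 to 3 months old, and formed 4 groups of 3 libraries each. cKO EAE were Drd2mGFAP cKO mice (a conditional knockout of the dopamine receptor gene Drd2 whose label names the GFAP promoter, active in astrocytes) at day 17 of experimental autoimmune encephalomyelitis (EAE), an immune attack on myelin used as a model of multiple sclerosis. Control EAE were littermates labelled wt at the same day. cKO basal and control basal were the same genotypes without EAE. The libraries were labelled as biological replicates, and neither the deleted part of Drd2 nor the way EAE was induced is stated in the labels.

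Interleukins are secreted proteins through which leukocytes and tissue cells act on each other. Most bind a receptor of several subunits, some of which are shared by many ligands, and signal through JAK kinases and STAT factors or, in the interleukin 1 and 17 families, through adaptors that activate NF-kB. In EAE, interleukin 12 and interleukin 23 are known for directing T helper cells, interleukin 1 and interleukin 6 for promoting T cells that make interleukin 17, and interleukin 27 and interleukin 10 for restraining inflammation. Decoy receptors and antagonists such as Il1rn and Il18bp bind a receptor or ligand without signalling.

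The RefSeq promoter table of GRCm38.p6 matched 65 of the 82 symbols, with 80 promoters among 32851 in all. The 250 bases before the annotated start are printed 5′ to 3′ for 6 genes that were picked after their values were seen. Il1a, Il1b, Il1rn, Il6 and Il17a had little or no RNA in basal tissue and more at EAE, whereas Il33 was high in every library. Capitals mark exact matches to TATAAA (gene strand only) or, on either strand, to GGGA, any 4 bases and CC (NF-kB), TGANTCA (AP-1), TTGCNNAA (C/EBP) and GAGGAA (PU.1).
Il1a, chr2:129309973-129310222, minus strand: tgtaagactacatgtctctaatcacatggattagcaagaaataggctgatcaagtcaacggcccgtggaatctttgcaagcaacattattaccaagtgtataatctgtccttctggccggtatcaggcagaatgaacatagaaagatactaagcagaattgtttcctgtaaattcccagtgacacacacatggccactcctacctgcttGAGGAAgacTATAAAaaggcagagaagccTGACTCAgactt
Il1b, chr2:129371140-129371389, minus strand: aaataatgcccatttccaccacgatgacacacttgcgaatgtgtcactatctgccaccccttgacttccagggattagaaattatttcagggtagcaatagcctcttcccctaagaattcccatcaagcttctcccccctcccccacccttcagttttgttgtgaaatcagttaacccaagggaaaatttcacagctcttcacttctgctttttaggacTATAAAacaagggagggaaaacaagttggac
Il1rn, chr2:24336610-24336859, plus strand: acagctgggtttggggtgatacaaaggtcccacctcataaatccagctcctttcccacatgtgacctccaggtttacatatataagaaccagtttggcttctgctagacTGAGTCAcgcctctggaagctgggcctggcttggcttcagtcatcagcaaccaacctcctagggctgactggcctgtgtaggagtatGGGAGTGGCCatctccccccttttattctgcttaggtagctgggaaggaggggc
Il6, chr5:30012864-30013113, plus strand: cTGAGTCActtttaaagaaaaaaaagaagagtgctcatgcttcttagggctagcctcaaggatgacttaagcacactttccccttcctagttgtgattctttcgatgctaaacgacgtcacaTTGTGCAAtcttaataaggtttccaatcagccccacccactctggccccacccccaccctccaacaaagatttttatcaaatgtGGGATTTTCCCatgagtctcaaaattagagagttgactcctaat
Il17a, chr1:20730655-20730904, plus strand: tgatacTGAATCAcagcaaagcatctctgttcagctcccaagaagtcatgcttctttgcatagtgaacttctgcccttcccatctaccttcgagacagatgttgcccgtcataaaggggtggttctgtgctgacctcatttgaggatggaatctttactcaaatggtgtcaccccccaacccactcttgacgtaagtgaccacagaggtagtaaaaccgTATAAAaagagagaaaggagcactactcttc
Il33, chr19:29945540-29945789, plus strand: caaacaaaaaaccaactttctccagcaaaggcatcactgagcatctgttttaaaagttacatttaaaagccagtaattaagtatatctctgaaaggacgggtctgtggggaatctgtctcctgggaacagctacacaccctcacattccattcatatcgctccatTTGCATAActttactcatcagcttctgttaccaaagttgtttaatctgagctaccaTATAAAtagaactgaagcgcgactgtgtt
Il1a, Il1b, Il17a and Il33 each held TATAAA, beginning 32, 31, 31 and 29 bases before the start. Il6 held an AP-1 match, a C/EBP match and a pair of NF-kB matches that overlap on opposite strands. The printed window of Il1rn held an AP-1 and an NF-kB match, Il1a an AP-1 and a PU.1 match, Il17a an AP-1 match and the printed window of Il33 a C/EBP match. The table holds 3 windows for Il1rn and 2 for Il33, of which 1 each is printed, and those not printed held no match to the letters searched except a TATAAA of Il33, beginning 203 bases before that start. The window of Il1b held none of the letters searched besides TATAAA. Over all promoters, the share with a match was 17.6% for NF-kB, 6.75% for AP-1, 9.56% for C/EBP, 23.3% for PU.1 and 7.59% for TATAAA, against 20%, 17.5%, 17.5%, 28.7% and 13.8% of the 80 family promoters in the same order. TTCNNNGAA, which STAT factors bind, was in 10% of the family promoters and 7.02% of all. These matches describe the sequence and say nothing of binding.

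The libraries held 15128913 to 17592105 counts, so that 1 count was worth 0.0568 to 0.0661 CPM (counts scaled to a common library size). Levels below are CPM after TMM scaling, and values of a group are given in the order of replicates 1, 2 and 3. Drd2, the targeted gene, had 6.73, 12.5 and 19.4 CPM in cKO EAE, 8.89, 8.998 and 9.62 CPM in control EAE, 17.6, 33.4 and 34.7 CPM in cKO basal and 26.5, 19.4 and 19.7 CPM in control basal. It was thus counted in every cKO library. Whole cord holds other cells that express it, so this does not check a deletion in astrocytes, and the genotypes stand as labelled. Homeobox genes of spinal position, neuron, oligodendrocyte and astrocyte markers were present in every library. Y-linked Ddx3y was at 69.7 to 74.5 CPM in the 6 EAE libraries and had no count in the 6 basal ones, and Xist was at 316 to 754 CPM in the basal libraries and at most 0.287 CPM in the EAE libraries, so EAE and sex cannot be told apart, while the genotypes were compared within 1 sex. In cKO basal 2, 36 family genes had a count, where the other libraries had 55 to 74 of them, and Il11ra1 was at 375.5 CPM, against 29.0 to 48.6 CPM elsewhere. The library stood apart beyond this family, with 17220 genes detected against 24303 to 26056 in the others. Its summed oligodendrocyte markers were at 63700 CPM, against 13400 to 25190 CPM elsewhere. cKO EAE 3 carried few leukocyte transcripts. Its summed T cell markers (10 of 10 found) were at 5.59 CPM, against 33.6 and 55.3 CPM in the other cKO EAE libraries, 114 to 123 CPM in control EAE and 4.09 to 5.91 CPM in the basal libraries. Its 10 monocyte and macrophage markers summed to 153 CPM, against 1250.0 and 2435 CPM in the other cKO EAE libraries, 4381 to 8846 CPM in control EAE and 63.0 to 117 CPM in the basal libraries. In such bulk tissue, fewer cells of a type and less RNA per cell cannot be told apart.

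The family took 0.0981, 0.112 and 0.0603% of all counts in cKO EAE and 0.158, 0.146 and 0.174% in control EAE. In basal tissue it took 0.0610, 0.0653 and 0.0550% in cKO and 0.0552, 0.0555 and 0.0561% in control mice. All 3 control EAE libraries lay above all others, and cKO EAE 3 lay within the basal range. Per gene length, in TPM, Il33, an alarmin of the interleukin 1 family that is kept in the nucleus, ranked first in all 4 groups. Its level was 206 ± 17.9 TPM in cKO EAE, 183 ± 27.8 in control EAE, 154 ± 52.7 in cKO basal and 177 ± 6.99 in control basal (SD, n = 3 each). In control basal cord the next were Il18 (58.0 ± 9.27 TPM), Il17d (46.3 ± 5.78), Il6st (42.1 ± 10.7) and Il4 (40.2 ± 2.02), of which Il17d and Il6st differed from the next by less than the SD of the higher one. In control EAE cord the next were Il1b (133 ± 41.1 TPM), Il10ra (78.0 ± 13.2), Il6st (72.7 ± 5.06), Il2rg (69.4 ± 17.7) and Il4ra (62.7 ± 7.59), and from Il10ra to Il4ra each gene differed from the next by less than its own SD. In cKO EAE cord Il6st (63.7 ± 11.2 TPM), Il18 (57.4 ± 10.3), Il4 (36.4 ± 6.45) and Il1b (29.6 ± 25.7) followed Il33. Il18 stood above Il4 by more than the SD of Il18, while Il6st and Il18 differed by less than the SD of Il6st. Il4 stood above Il1b by more than the SD of Il4 but by less than that of Il1b. Their order differed between libraries, with Il4 at 42.05, 29.37 and 37.75 TPM and Il1b at 39.65, 48.65 and 0.359 TPM in cKO EAE 1, 2 and 3.

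**Figure D1:**
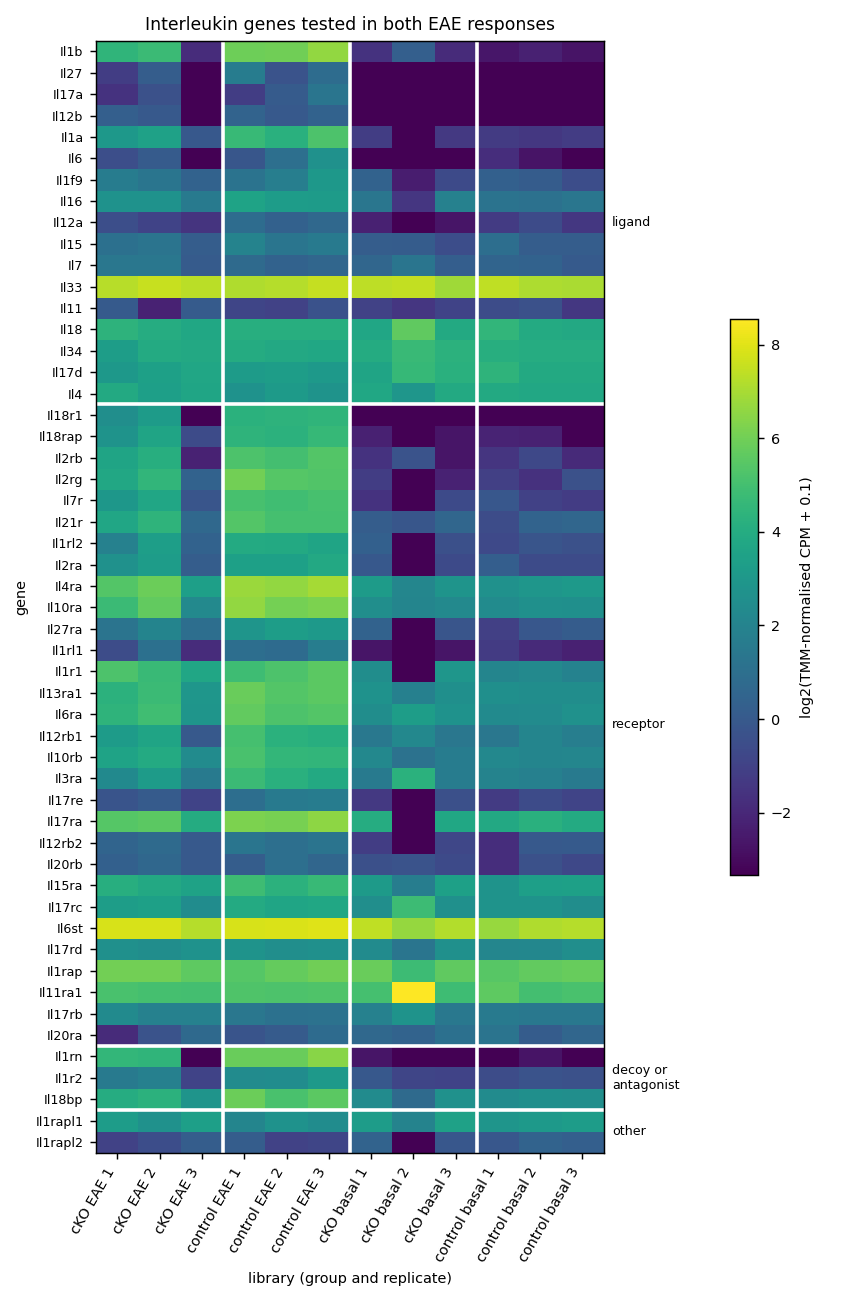
Level of the 52 interleukin family genes that entered the test of EAE responses, as log2 of TMM-normalised CPM plus 0.1 (colour), in each of the 12 libraries (columns, grouped by white lines). Most receptors and the interleukin 1 genes are bright in the 3 control EAE libraries, paler in cKO EAE 1 and 2 and near the basal colours in cKO EAE 3, while Il33 and Il6st are bright in every column and Il11ra1 stands out in cKO basal 2.

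In control mice, most of the family that could be tested was higher in the EAE libraries, which also differ from the basal ones in sex. Of 52 tested genes, 33 rose and 1 fell at a Benjamini-Hochberg adjusted p below 0.05 in edgeR's quasi-likelihood test, against 12.1% rising and 5.05% falling among all genes tested. By role, 8 of 17 ligands, 22 of 30 receptors and all 3 tested decoys or antagonists rose, 1 ligand (Il4) fell, and neither of the 2 tested synaptic receptor-like genes was called. The median log2 fold change was 2.61 for the family and -0.00649 for all genes, and the 4 genes without any basal count lay above that median also at their lower bounds. The filter on low counts let 51 members pass in the EAE libraries alone and 33 in the basal libraries alone. Members that passed through EAE only had to differ, so these counts are descriptions. Without cKO basal 2 and cKO EAE 3, which enter the same fit, 39 of 53 rose and 3 fell, against 24.9% and 20.8% of all genes. Leaving out single control libraries lowered the number called to between 17 and 21. The share of all genes called fell as well, from 17.1% to between 9.04% and 10.9%.

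The interleukin 1 genes moved furthest among abundant ligands. Il1b, the secreted form made mainly by myeloid cells, had 61.1, 62.8 and 100.4 CPM in control EAE and 0.0636, 0.111 and 0.0553 CPM in control basal (log2 fold change 9.79, SE 1.59, adjusted p = 0.00329). Il1a, which signals through the same receptor, had 25.4, 18.7 and 37.3 CPM in control EAE and 0.318, 0.276 and 0.332 CPM in control basal (log2 fold change 6.43, SE 0.94, adjusted p = 0.00318). For both genes the lowest EAE library stood far above the highest basal one. Within libraries, the TPM of Il1b was 2.49, 3.48 and 2.79 times that of Il1a in control EAE 1, 2 and 3. Il1f9, an interleukin 36 ligand, was at 2.19, 3.26 and 8.05 CPM in control EAE and 1.15, 0.994 and 0.608 CPM in control basal, without overlap, but it was not called (adjusted p = 0.0508 in edgeR's test). Without cKO basal 2 and cKO EAE 3 it rose by 2.31 (SE 0.50, adjusted p = 0.00223).

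Il12b, Il27, Il17a, Il12a and Il6 were each below 1 CPM in every control basal library and rose in control EAE. Il12b, the subunit that interleukin 12 and interleukin 23 share, was at 1.27, 0.888 and 1.23 CPM in control EAE and had no count in any control basal library, at least 19.5-fold higher against a floor of 3 counts over the basal group. Il27, a subunit of interleukin 27, was at 3.06, 0.710 and 1.75 CPM in control EAE, and Il17a, the signature cytokine of T helper 17 cells, at 0.346, 0.947 and 2.33 CPM in control EAE. Neither had a basal control count, which gave at least 32.0-fold and at least 20.9-fold higher levels. The adjusted p of these 3 genes by edgeR's test were 0.0361, 0.0307 and 0.0418. Il12a, the other subunit of interleukin 12, had 1.73, 1.18 and 1.52 CPM in control EAE and 0.318, 0.552 and 0.276 CPM in control basal (log2 fold change 1.93, SE 0.54, adjusted p = 0.0316). Il6, an activator of STAT3, had 0.808, 1.89 and 6.30 CPM in control EAE and 0.191, 0.0552 and 0 CPM in control basal (log2 fold change 5.13, SE 1.40, adjusted p = 0.0359). The level of Il6 in control EAE 3 stood well above those of control EAE 1 and 2, and no EAE library of either gene overlapped a basal one. Il16, a chemoattractant that binds CD4, had 11.8, 9.47 and 9.10 CPM in control EAE and 2.23, 2.04 and 2.43 CPM in control basal (log2 fold change 2.18, SE 0.63, adjusted p = 0.0373), again with no overlap. Il27 and Il16 overlap the genes Apobr and Stard5 on the opposite strand, and as the strand setting of the counting was not given, reads of such pairs cannot be told apart.

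The 5 ligands with the highest TPM in control basal cord went different ways: for Il33, Il18 and Il34 the difference was small, and Il17d and Il4 were lower at EAE. Il33 was at 139, 149 and 179 CPM in control EAE and 169, 138 and 134 CPM in control basal, and the groups overlapped (log2 fold change 0.08, SE 0.20, adjusted p = 0.853). Il18, which caspase 1 activates, was at 17.3, 17.2 and 17.1 CPM in control EAE and 22.4, 15.3 and 14.2 CPM in control basal, also overlapping (log2 fold change -0.01, SE 0.45, adjusted p = 0.995). Il34, a ligand of the receptor CSF1R that sustains microglia, was at 15.7, 14.5 and 13.2 CPM in control EAE and 17.5, 16.5 and 16.1 CPM in control basal. All 3 control EAE libraries were below the basal ones for Il34, by less than the test could call (log2 fold change -0.21, SE 0.24, adjusted p = 0.664). Il17d, of the interleukin 17 family, was at 8.94, 9.65 and 8.28 CPM in control EAE and 21.4, 14.9 and 14.9 CPM in control basal, with no overlap (adjusted p = 0.053), and it fell when cKO basal 2 and cKO EAE 3 were left out (-0.92 (SE 0.21, adjusted p = 0.00318)). Il4, the cytokine of type 2 T helper cells, was the member that fell, with 6.58, 8.88 and 6.71 CPM in control EAE and 14.8, 13.7 and 13.8 CPM in control basal (log2 fold change -0.93, SE 0.28, adjusted p = 0.0435). It was not called when any single control library was left out (adjusted p = 0.0672 to 0.122 in edgeR's test). Of 8 mast cell and basophil markers, Mcpt4, Cma1 and Fcer1a were at 0 in every library and Cpa3, Tpsb2 and Ms4a2 at most at 0.288 CPM. Kit and Gata2, which other cells also express, were counted in every library, and the list summed to 33.4 to 35.3 CPM in control EAE and 36.9 to 41.2 CPM in control basal. The summed neuron markers were also lower, at 2131 to 3086 CPM in control EAE and 6117 to 6936 CPM in control basal, and their part in the values of Il4 and Il17d was not tested. Il4 lies on chromosome 11 (53602982 to 53618669, minus strand, build mm10), 1015 bases beyond the end of Kif3a, a kinesin gene on the plus strand. Kif3a was also lower in control EAE, at 68.5, 79.7 and 76.6 CPM, than in control basal, at 98.7, 125 and 127 CPM. Whether reads of Kif3a were counted for Il4 was not tested.

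**Figure D2:**
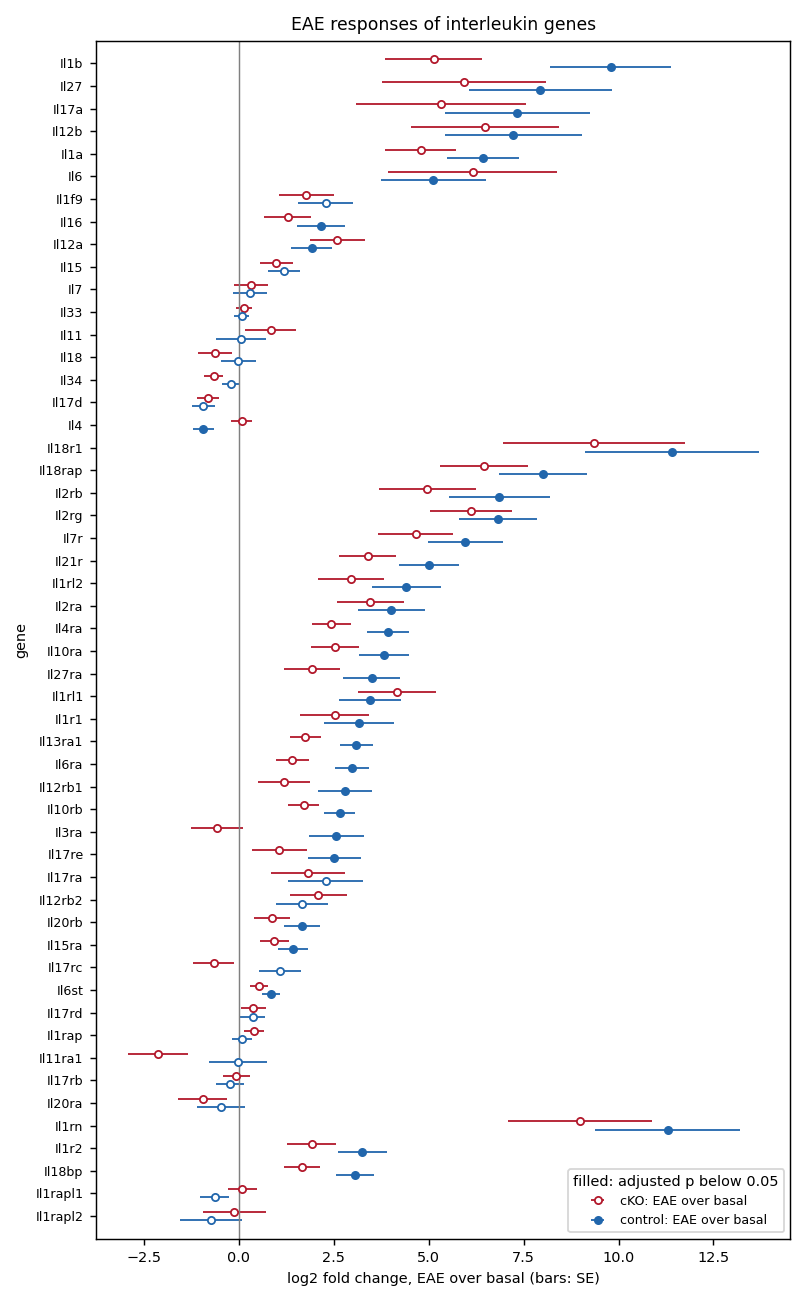
Log2 fold change of EAE over basal (horizontal axis, bars SE) for 52 interleukin family genes in cKO (red) and control mice (blue), with filled points where the adjusted p was below 0.05 in edgeR's test. Of the blue points 34 are filled and of the red ones 0, while most red points lie on the same side of 0 as the blue ones.

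Among receptors the largest fitted responses belonged to those of interleukin 18 and of the common gamma chain family. Il18rap, the signalling subunit for interleukin 18, had 21.1, 19.7 and 25.1 CPM in control EAE and 0.127, 0.111 and 0 CPM in control basal (log2 fold change 8.01, SE 1.15, adjusted p = 0.00318). Its partner Il18r1, picked for its size of change, had 19.4, 20.3 and 21.6 CPM in control EAE and no count in control basal, at least 354-fold higher. Each subunit was thus near 20 CPM in every control EAE library and at or close to 0 in the basal ones, whereas the libraries of their ligand Il18 overlapped. Il2rg, the chain shared by the receptors of interleukins 2, 4, 7, 9, 15 and 21, had 65.5, 42.3 and 39.8 CPM in control EAE and 0.382, 0.221 and 0.663 CPM in control basal (log2 fold change 6.84, SE 1.03, adjusted p = 0.00318). Its partners Il2ra, Il2rb, Il7r and Il21r, also picked after their values were seen, rose by log2 fold changes of 4.02 (SE 0.88), 6.87 (SE 1.32), 5.97 (SE 0.98) and 5.02 (SE 0.79), and Il15ra by 1.42 (SE 0.39). Of the ligands that use this chain, Il2, Il9 and Il21 had too few counts to be tested, Il7 and Il15 did not pass the test, and Il4 fell. Without cKO basal 2 and cKO EAE 3, Il15 rose by 1.22 (SE 0.33, adjusted p = 0.00938).

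Il4ra, Il13ra1, Il10rb and Il6ra each had basal levels of several CPM and rose as well. Il4ra, the alpha chain for interleukins 4 and 13, had 109, 99.2 and 125 CPM in control EAE and 6.23, 7.40 and 8.29 CPM in control basal (log2 fold change 3.93, SE 0.55, adjusted p = 0.00318). Il13ra1, its partner, which is on the X chromosome, had 56.7, 41.4 and 47.6 CPM in control EAE and 5.91, 5.47 and 5.64 CPM in control basal (log2 fold change 3.10, SE 0.43, adjusted p = 0.00318). Il10rb, a chain that the receptors of interleukin 10 and interleukin 22 share, had 35.1, 23.5 and 22.8 CPM in control EAE and 4.51, 4.09 and 4.31 CPM in control basal (log2 fold change 2.66, SE 0.41, adjusted p = 0.00319). In each of these genes the lowest EAE library was several-fold above the highest basal one. Il6ra, which binds interleukin 6, had 51.2, 38.2 and 41.3 CPM in control EAE and 5.02, 5.25 and 6.24 CPM in control basal (log2 fold change 2.98, SE 0.45, adjusted p = 0.00318), and Il6st, the signalling chain of the interleukin 6 family, had 228, 236 and 250.0 CPM in control EAE and 106, 141 and 149.9 CPM in control basal (log2 fold change 0.85, SE 0.24, adjusted p = 0.0315). Both rose without overlap, Il6st by the smallest amount of all called receptors. Il1rl1, the receptor of interleukin 33, had 1.85, 1.66 and 3.21 CPM in control EAE and 0.318, 0.166 and 0.111 CPM in control basal (log2 fold change 3.47, SE 0.82, adjusted p = 0.0148). Every EAE library was above every basal one, though none of the 12 reached 4 CPM. Il3ra, the alpha chain for interleukin 3, had 26.8, 18.5 and 14.9 CPM in control EAE and 3.82, 3.48 and 2.82 CPM in control basal (log2 fold change 2.57, SE 0.73, adjusted p = 0.0329).

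The interleukin 17 receptor genes were uneven. Il17ra, the shared chain, was at 73.6, 69.8 and 91.4 CPM in control EAE and 14.2, 18.5 and 15.4 CPM in control basal without overlap, but did not pass the test (log2 fold change 2.29, SE 0.98, adjusted p = 0.148). cKO basal 2, a library in the same fit, had 0 counts of it, and without cKO basal 2 and cKO EAE 3 it rose by 2.29 (SE 0.15, adjusted p = 1.42e-07). Il17re, the chain for interleukin 17C, had 1.85, 2.78 and 3.03 CPM in control EAE and 0.318, 0.552 and 0.442 CPM in control basal (log2 fold change 2.52, SE 0.69, adjusted p = 0.0291). Il17rc had 15.2, 12.7 and 13.4 CPM in control EAE and 6.87, 6.85 and 5.64 CPM in control basal, without overlap, and rose when cKO basal 2 and cKO EAE 3 were left out (1.10 (SE 0.16, adjusted p = 0.000118)). Il17rc, Il17rd and Il17rb were not called with all libraries, with log2 fold changes of 1.09 (SE 0.55), 0.37 (SE 0.33) and -0.23 (SE 0.36). Il1rap, the accessory chain of the interleukin 1, 33 and 36 receptors, and Il11ra1 were not called, at 0.08 (SE 0.26) and -0.02 (SE 0.77) on the log2 scale, whereas Il1r1, the receptor that binds interleukin 1, rose by 3.18 (SE 0.92). Il11ra1 shares its span with 6 other protein-coding genes, so its counts are uncertain. Of the receptor-like genes of synapses, Il1rapl1 had 4.10, 6.57 and 5.42 CPM in control EAE and 7.12, 8.62 and 9.23 CPM in control basal (log2 fold change -0.63, SE 0.38, adjusted p = 0.318), and Il1rapl2 1.04, 0.414 and 0.467 CPM in control EAE and 0.827, 1.27 and 1.11 CPM in control basal (log2 fold change -0.73, SE 0.81, adjusted p = 0.635). Il1rapl1 was lower in each EAE library and fell when cKO basal 2 and cKO EAE 3 were left out (-0.63 (SE 0.22, adjusted p = 0.0339)), and Il1rapl2 overlapped.

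All 3 tested decoys or antagonists rose in control mice. Il1rn, the interleukin 1 receptor antagonist, had 56.3, 57.0 and 88.1 CPM in control EAE, and its only basal control count was 1 in replicate 2 (log2 fold change 11.29, SE 1.91, adjusted p = 0.00369). Il18bp, the soluble protein that neutralises interleukin 18, had 59.3, 35.2 and 46.9 CPM in control EAE and 5.15, 6.02 and 5.75 CPM in control basal (log2 fold change 3.06, SE 0.50, adjusted p = 0.00331). Il1r2, the decoy receptor of interleukin 1, had 5.14, 5.45 and 8.34 CPM in control EAE and 0.572, 0.718 and 0.663 CPM in control basal (log2 fold change 3.26, SE 0.65, adjusted p = 0.00706). No EAE library overlapped a basal one for any of them. Il18bp lies opposite Numa1, whose total over the 12 libraries was 29544 counts against 3654 for Il18bp.

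In cKO mice no member passed the test for EAE against basal, and almost no gene did. Of 52 members 0 were called, against 0.0376% of all genes (0.0323% rising, 0.00538% falling). Of the members, 31 rising and 3 falling values had an unadjusted p below 0.05 (19.6% of all genes had one in either direction). DESeq2's Wald test called 22 members and 6.66% of all genes, and limma voom with sample weights 29 members and 19.6% of all genes. Without cKO basal 2 and cKO EAE 3, 29 of 53 rose and 0 fell, against 10.8% and 3.51% of all genes. Without cKO EAE 3 alone 21 rose and 0 fell (of all genes 5.4% rose and 5.63% were called in either direction). Leaving out any other single cKO library gave 0 (0.0262% to 0.0367% of all genes). cKO basal 2 and cKO EAE 3 were left out with their values known, so these counts are descriptions. The median log2 fold change over the members was 1.73, against 0.08 over all genes.

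Il1b and Il1rn differed between the cKO EAE libraries. Il1b had 21.9, 26.8 and 0.182 CPM in cKO EAE and 0.233, 1.09 and 0.179 CPM in cKO basal (log2 fold change 5.13, SE 1.27, adjusted p = 0.0862). Il1rn had 23.1, 21.9 and 0 CPM in cKO EAE and 0.0582, 0 and 0 CPM in cKO basal (log2 fold change 8.98, SE 1.89, adjusted p = 0.0736). In both genes cKO EAE 1 and 2 were far above the basal libraries and cKO EAE 3 lay among them. Il18rap had 6.73, 12.04 and 0.547 CPM in cKO EAE and 0.116, 0 and 0.0596 CPM in cKO basal (log2 fold change 6.46, SE 1.16, adjusted p = 0.0726). Il2rg had 13.97, 22.2 and 1.22 CPM in cKO EAE and 0.349, 0 and 0.119 CPM in cKO basal (log2 fold change 6.12, SE 1.08, adjusted p = 0.0726), and Il4ra 41.3, 59.3 and 10.3 CPM in cKO EAE and 9.19, 4.28 and 6.92 CPM in cKO basal (log2 fold change 2.44, SE 0.52, adjusted p = 0.0736). For these 3 receptors even cKO EAE 3 lay above every basal library, by a small margin next to the other cKO EAE libraries. Il12b had 1.09, 0.899 and 0 CPM in cKO EAE and no cKO basal count, at least 10.1-fold higher, with adjusted p = 0.184 in edgeR's test. Il6 had 0.633, 0.959 and 0 CPM in cKO EAE and Il17a 0.230, 0.659 and 0 CPM in cKO EAE, each again without a cKO basal count, at least 8.01-fold and at least 4.45-fold higher. Il33 had 157, 186 and 159 CPM in cKO EAE and 164, 176 and 115 CPM in cKO basal (log2 fold change 0.14, SE 0.20, adjusted p = 0.729), with the groups overlapping. Il4 had 14.95, 10.4 and 12.3 CPM in cKO EAE and 13.6, 7.37 and 14.7 CPM in cKO basal (log2 fold change 0.08, SE 0.28, adjusted p = 0.894), and also overlapped.

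None of the other members described here passed the test in cKO mice either. Il1a had 8.05, 11.1 and 0.851 CPM in cKO EAE and 0.349, 0 and 0.298 CPM in cKO basal. Il27 had 0.345, 1.02 and 0 CPM in cKO EAE and 0 in all 3 cKO basal libraries. Il16 had 6.44, 6.65 and 2.80 CPM in cKO EAE and 2.44, 0.273 and 3.64 CPM in cKO basal. In these ligands cKO EAE 3 was the lowest EAE library, for Il16 inside the basal range. Il12a had 0.116, 0 and 0.0596 CPM in cKO basal and Il34 9.60, 15.2 and 14.3 CPM in cKO EAE and 15.6, 26.3 and 19.9 CPM in cKO basal. Of the receptors, Il13ra1 had 19.4, 27.4 and 7.36 CPM in cKO EAE and 6.63, 3.46 and 5.84 CPM in cKO basal, and Il10rb 11.7, 15.1 and 5.23 CPM in cKO EAE and 4.60, 2.09 and 3.04 CPM in cKO basal. Il6ra had 20.9, 30.1 and 7.23 CPM in cKO EAE and 5.64, 9.73 and 6.56 CPM in cKO basal. In Il13ra1 and Il10rb all EAE libraries were above the basal ones, whereas cKO EAE 3 overlapped them in Il6ra. Il6st had 226, 225 and 150.1 CPM in cKO EAE and 169, 103 and 145 CPM in cKO basal, with cKO EAE 3 below cKO basal 1. Il1rl1 had 0.575, 1.98 and 0.182 CPM in cKO EAE and 0.0582, 0 and 0.0596 CPM in cKO basal. Il27ra had 1.22, 0 and 0.775 CPM in cKO basal and 0.382, 0.829 and 0.995 CPM in control basal, and Il17re 0.291, 0 and 0.656 CPM in cKO basal. In both genes cKO basal 2 had no count. The decoy Il1r2 had 2.82, 3.53 and 0.426 CPM in cKO EAE and 0.872, 0.455 and 0.417 CPM in cKO basal, with cKO EAE 3 inside the basal range. Il1rapl1 had 9.42, 3.82 and 11.1 CPM in cKO basal, and Il1rapl2 0.403, 0.599 and 1.03 CPM in cKO EAE and 1.28, 0 and 0.835 CPM in cKO basal.

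**Figure D3:**
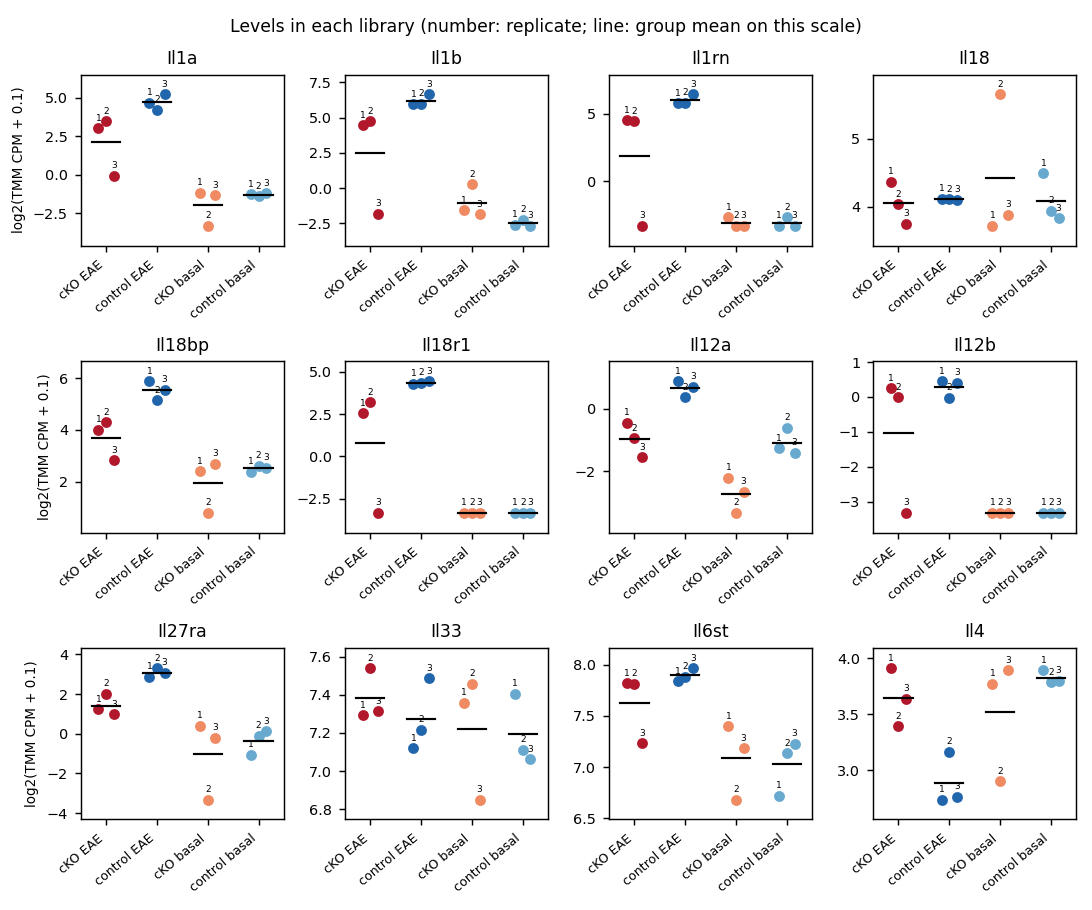
Level of 12 interleukin family genes in each library, as log2 of TMM-normalised CPM plus 0.1 (vertical axis; each panel has its own range), by group, with the replicate number above each point and a line at the group mean of the plotted values. In the panels of Il1a, Il1b, Il1rn and Il18r1, cKO EAE 3 lies at or near the basal libraries while cKO EAE 1 and 2 lie below control EAE; Il33 and Il18 show no such split.

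At EAE the cKO libraries had lower levels of most family members than the control libraries, and 4 passed the test. Of 51 members tested among the 6 EAE libraries, 4 fell and 0 rose in cKO against control mice, against 1.54% falling and 6.13% rising among all genes. In either direction 7.67% of all genes were called, so the number of members called was near that share. All 3 cKO libraries lay below all 3 control libraries for 31 of the 51 (26.7% of all genes did so) and above them for 2 (21.2% of all genes). The median log2 fold change was -1.13 for the members and -0.000188 for all genes, with 20 of 51 members and 35.9% of all genes at an unadjusted p below 0.05. This comparison uses the same control EAE libraries as the EAE response of control mice, so they are not independent of each other. The marker sums of T cells and of monocytes and macrophages were lower in every cKO EAE than in every control EAE library, and those of neutrophils (192, 165 and 49.8 CPM in cKO EAE, 269, 231 and 239.8 CPM in control EAE) and microglia (522, 945 and 228 CPM in cKO EAE, 1116, 1060.0 and 1079 CPM in control EAE) likewise. Those of neurons (6276, 4643 and 6106 CPM in cKO EAE, 2575, 3086 and 2131 CPM in control EAE), oligodendrocytes (18460 to 25110 CPM in cKO EAE, 13400 to 16890 CPM in control EAE) and Schwann cells (9063 to 11630 CPM in cKO EAE, 5390 to 7488 CPM in control EAE) were higher in every cKO EAE library. The part of these lists in the differences below, in either direction, was not tested.

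The 4 called genes were 2 receptors, 1 ligand and 1 decoy or antagonist. Il27ra, the receptor of interleukin 27, had 2.24, 3.95 and 1.88 CPM in cKO EAE and 7.21, 9.83 and 8.28 CPM in control EAE (log2 fold change -1.61, SE 0.30, adjusted p = 0.044). Il17re had 0.748, 0.959 and 0.426 CPM in cKO EAE and 1.85, 2.78 and 3.03 CPM in control EAE (log2 fold change -1.80, SE 0.36, adjusted p = 0.0444). In both the highest cKO library was well under the lowest control library. Il18bp had 16.04, 19.5 and 6.99 CPM in cKO EAE and 59.3, 35.2 and 46.9 CPM in control EAE (log2 fold change -1.70, SE 0.38, adjusted p = 0.0485). Il12a had 0.633, 0.419 and 0.243 CPM in cKO EAE and 1.73, 1.18 and 1.52 CPM in control EAE (log2 fold change -1.71, SE 0.39, adjusted p = 0.0488), which rests on 4 to 11 counts in each cKO library. All 4 differences remained between -2.11 and -1.37 on the log2 scale whichever single EAE library was left out. Without cKO EAE 1 the adjusted p was 0.138 for each, and without any 1 of the control EAE libraries it was 0.115 to 0.172, and in these settings no gene of the whole table was called. Without cKO EAE 2 it was 0.0230 to 0.0349 for Il27ra, Il17re and Il18bp and 0.0608 for Il12a, by edgeR's quasi-likelihood test throughout. Il27ra overlaps Palm3 on the opposite strand.

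**Figure D4:**
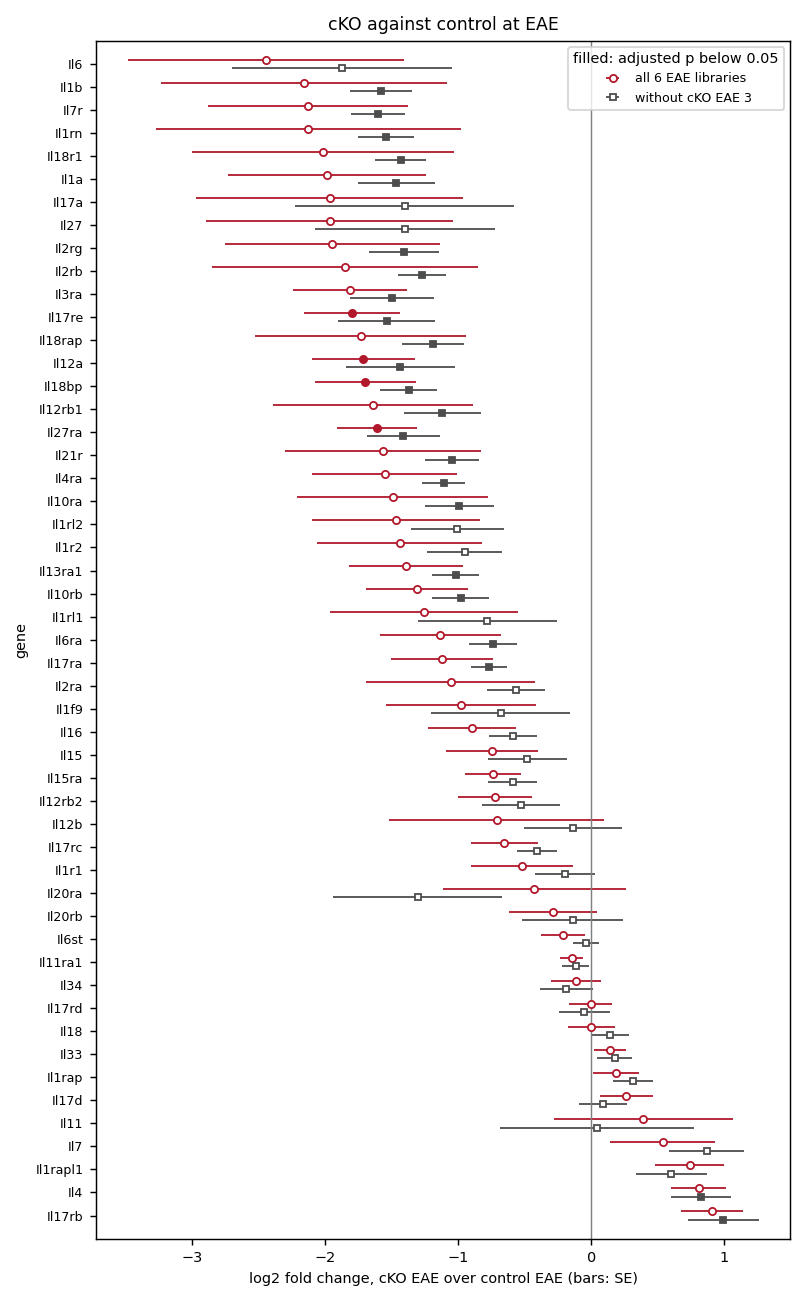
Log2 fold change of cKO EAE over control EAE (horizontal axis, bars SE) for the interleukin family genes tested, with all 6 EAE libraries (red circles) and without cKO EAE 3 (grey squares), filled where the adjusted p was below 0.05 in edgeR's test. With all libraries 4 points are filled and most SE are wide; without cKO EAE 3 most values move towards 0, most SE shrink, and 23 points are filled.

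Without cKO EAE 3, a library known to stand apart from an earlier analysis, 21 of 53 members fell and 2 rose, against 9.10% and 9.11% of all genes. The cKO group then had 2 libraries, and the spread was taken over both groups. cKO EAE 3 was left out with its low values of leukocyte markers and of members such as Il1b known, so these calls are descriptions. The fallen included Il1b (-1.58 (SE 0.23, adjusted p = 0.015)), Il1rn (-1.54 (SE 0.21, adjusted p = 0.015)), Il1a (-1.46 (SE 0.29, adjusted p = 0.0183)), Il2rg (-1.41 (SE 0.26, adjusted p = 0.0164)), Il18rap (-1.19 (SE 0.23, adjusted p = 0.018)), Il4ra (-1.11 (SE 0.16, adjusted p = 0.015)) and Il13ra1 (-1.02 (SE 0.18, adjusted p = 0.0151)). With all 6 libraries the same genes were not called. They had larger differences and larger errors, of -2.16 (SE 1.08) for Il1b, -2.12 (SE 1.14) for Il1rn and -1.98 (SE 0.74) for Il1a. The 2 that rose were Il4 and Il17rb, the receptor chain for interleukins 17B and 25. Il4 had 14.95, 10.4 and 12.3 CPM in cKO EAE and 6.58, 8.88 and 6.71 CPM in control EAE (log2 fold change 0.81, SE 0.21, adjusted p = 0.0566 with all libraries). Il17rb had 5.12, 3.59 and 3.65 CPM in cKO EAE and 2.54, 2.07 and 2.16 CPM in control EAE (log2 fold change 0.91, SE 0.23, adjusted p = 0.0579 with all libraries). For both, each cKO library was above each control library. Kif3a, next to Il4, was at 107, 91.4 and 127 CPM in cKO EAE, also above each control EAE library. Il17rb overlaps Actr8 on the opposite strand.

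The remaining members described here did not pass the test between genotypes at EAE. Il3ra had 4.83, 9.11 and 2.86 CPM in cKO EAE and 26.8, 18.5 and 14.9 CPM in control EAE, without overlap (log2 fold change -1.81, SE 0.43, adjusted p = 0.0512). Il6 had 0.633, 0.959 and 0 CPM in cKO EAE and 0.808, 1.89 and 6.30 CPM in control EAE (log2 fold change -2.44, SE 1.04, adjusted p = 0.144), and Il17a 0.230, 0.659 and 0 CPM in cKO EAE and 0.346, 0.947 and 2.33 CPM in control EAE (log2 fold change -1.97, SE 1.00, adjusted p = 0.2). Both overlapped between genotypes, and control EAE 3 was the highest library for each. Il12b had 1.09, 0.899 and 0 CPM in cKO EAE and 1.27, 0.888 and 1.23 CPM in control EAE (log2 fold change -0.71, SE 0.81, adjusted p = 0.554), with cKO EAE 1 and 2 inside the control range and no count in cKO EAE 3. Il33 (0.14 (SE 0.12)), Il34 (-0.12 (SE 0.19)) and Il6st (-0.21 (SE 0.17)) had small log2 differences. Il1rapl1 was at 9.37, 6.41 and 10.3 CPM in cKO EAE and 4.10, 6.57 and 5.42 CPM in control EAE (log2 fold change 0.74, SE 0.26, adjusted p = 0.101), overlapping. Il16, Il1r2 and Il1rl1 had differences of -0.89 (SE 0.33), -1.44 (SE 0.62) and -1.26 (SE 0.71) on the log2 scale, none of them called.

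Ratios of TPM within a library compared inhibitors with their partners without the scaling between libraries. They are given as descriptions, and no test was made. Il18bp stood at 0.266, 0.406 and 0.178 of Il18 in cKO EAE, 1.17, 0.699 and 0.933 in control EAE, 0.135, 0.0111 and 0.148 in cKO basal and 0.0784, 0.134 and 0.138 in control basal. Every cKO EAE ratio was thus below every control EAE ratio and above every basal one. Il1rn stood at 0.363 and 0.281 of Il1b in cKO EAE 1 and 2 and at 0.318, 0.313 and 0.302 in control EAE, so both groups lay close together. In cKO EAE 3 that ratio was not computed, with 0 and 3 counts. Il1r2 stood at 0.249, 0.447 and 0.110 of Il1r1 in cKO EAE and at 0.587, 0.486 and 0.591 in control EAE. Those groups did not overlap either, though cKO EAE 2 (0.447) and control EAE 2 (0.486) lay close together. The basal libraries with counts of both genes ran from 0.185 to 0.516 in cKO and from 0.462 to 0.589 in control mice. These ratios rest on 49, 59 and 7 counts of Il1r2 in cKO EAE and 89, 92 and 143 in control EAE. In those basal libraries Il1r2 had 7 to 15 counts.

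**Figure D5:**
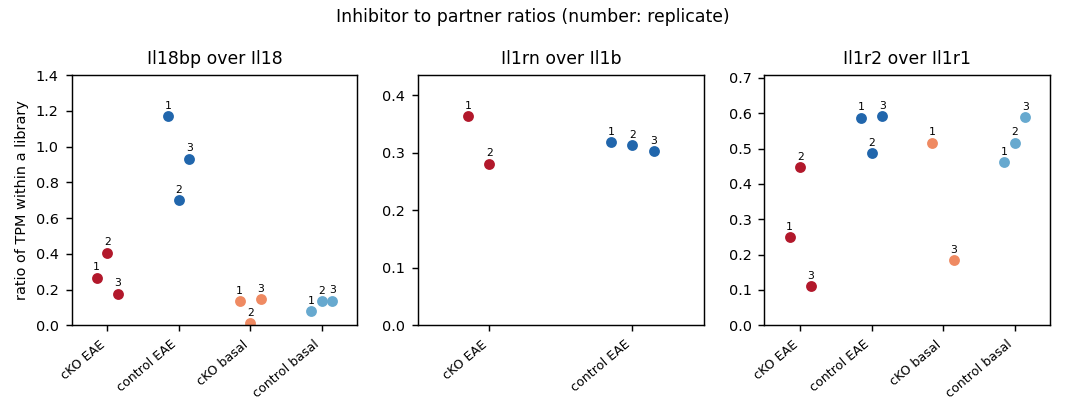
Ratio of TPM within a library (vertical axis, from 0) of Il18bp to Il18, Il1rn to Il1b and Il1r2 to Il1r1, 1 point per library with its replicate number. The Il18bp to Il18 ratio is 0.178 to 0.406 in cKO EAE and 0.699 to 1.17 in control EAE, whereas the Il1rn to Il1b ratio, shown only for libraries with enough counts, is near 0.3 in both.

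Without EAE the genotypes were not told apart in this family. Of 33 members tested among the 6 basal libraries 0 were called in either direction, against 0% of all genes, and 0 had an unadjusted p below 0.05 (0.181% of all genes did). DESeq2's Wald test and limma voom also called 0, against 0.00584% and 0% of all genes. cKO basal 2 stood outside its group in many members. Il3ra was at 2.79, 19.4 and 3.04 CPM in cKO basal and 3.82, 3.48 and 2.82 CPM in control basal (log2 fold change 1.33, SE 0.82, adjusted p = 0.997), Il17rb at 3.66, 6.73 and 2.62 CPM in cKO basal and 2.73, 2.60 and 2.60 CPM in control basal (log2 fold change 0.72, SE 0.45, adjusted p = 0.997), and in both cKO basal 2 was the highest library. Il18bp was at 5.18, 1.64 and 6.38 CPM in cKO basal and 5.15, 6.02 and 5.75 CPM in control basal (log2 fold change -0.35, SE 0.51, adjusted p = 0.997), and there cKO basal 2 was the lowest.

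The difference between the EAE responses of cKO and control mice was tested directly, in 1 fit of all 12 libraries. Of 52 members 0 were called, against 0% of all genes, 6 had an unadjusted p below 0.05 (9.12% of all genes did), and DESeq2's Wald test called 0 (0.414% of all genes) and limma voom 7 (16.1% of all genes). A response that passed in control mice and missed in cKO mice was therefore not shown to differ between them. The 6 were Il3ra with -3.15 (SE 1.00), Il6ra with -1.57 (SE 0.60), Il4 with 1.01 (SE 0.39), Il1b with -4.66 (SE 2.00), Il13ra1 with -1.34 (SE 0.57) and Il17rc with -1.75 (SE 0.77), as log2 differences of cKO minus control response, each at adjusted p = 0.547 by edgeR's test. In cKO basal 2 Il3ra was at 19.4 CPM, against 2.79 to 3.82 CPM in the other basal libraries. Il17rc was at 28.6 CPM there, against 5.64 to 6.87 CPM in the other basal libraries. Without cKO basal 2 and cKO EAE 3 the log2 difference was -0.35 (SE 0.25) for Il17rc, -1.34 (SE 0.44) for Il3ra and -2.98 (SE 0.93) for Il1b. For Il3ra the cKO response, -0.57 with all libraries, was 1.24 (SE 0.35, adjusted p = 0.0311).

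The 32 members that were not tested had at most 56 counts over the 12 libraries, and 7 had none (Il1f5, Il1f8, Il9, Il20, Il31, Il22ra1 and 1 entry of Il11ra2), and 5 members in all lie on the X chromosome, among them Il2rg, Il13ra1 and Il13ra2. A count of 0 allows up to 0.171 to 0.198 CPM in a library, by counting error alone. Il10, a cytokine that limits inflammation, had 0, 8 and 1 counts in cKO EAE, 2, 4 and 3 in control EAE, 0 in cKO basal and 1 in control basal. Il23a, which pairs with Il12b in interleukin 23, had 0, 9 and 3 counts in cKO EAE, 3, 3 and 8 in control EAE, 2 in cKO basal and 7 in control basal, so it was counted in basal cord of both genotypes. Its receptor Il23r had 6 counts in cKO EAE, 28 in control EAE, 1 in cKO basal and 0 in control basal. Of the 56 counts of Il2, the T cell growth factor, 38 were in cKO basal 2, and so were 10 of the 13 of the decoy receptor Il13ra2.

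Most tested genes that act with this family but do not carry its name also rose with EAE in control mice. Of 38 such genes (partner subunits, adaptors, JAK kinases, STAT factors and their inhibitors), listed from general knowledge, 36 were tested. In control mice 27 rose and 0 fell, against 12.1% and 5.05% of all genes, with a median log2 fold change of 2.37. Socs3, an inhibitor that STAT3 induces, had 82.3, 83.9 and 139.9 CPM in control EAE and 0.954, 0.829 and 1.71 CPM in control basal (log2 fold change 6.44, SE 0.95, adjusted p = 0.00318 in edgeR's test). Ebi3, the partner of Il27, had 7.67, 4.74 and 3.73 CPM in control EAE and 0.699, 0.497 and 0.332 CPM in control basal (3.39, SE 0.51, 0.00318), and Stat3 had 263, 255 and 338 CPM in control EAE and 83.4, 96.3 and 93.7 CPM in control basal (1.65, SE 0.26, 0.00323). In none of the 3 did the groups overlap. In cKO mice 0 of the 36 were called for EAE against basal, against 0.0376% of all genes. Their median log2 fold change there was 1.10, against 0.08 over all genes. Between genotypes at EAE 2 of 36 rose and 2 fell, against 6.13% and 1.54% of all genes, so the share that rose was near that of all genes. Sigirr, an inhibitory receptor of the interleukin 1 family, fell, with 3.85, 3.89 and 3.16 CPM in cKO EAE and 7.04, 6.33 and 6.18 CPM in control EAE (-0.80, SE 0.17, 0.0474), and so did Stat5b (-0.51, SE 0.10, 0.0454). Cntfr and Lifr, receptor chains that work with Il6st, rose. Lifr had 139, 114 and 111 CPM in cKO EAE and 77.3, 91.4 and 81.8 CPM in control EAE (0.58, SE 0.12, 0.0476), and Cntfr 103, 96.6 and 116 CPM in cKO EAE and 80.5, 79.9 and 71.3 CPM in control EAE (0.48, SE 0.10, 0.0474). At basal 0 of the 31 tested were called between genotypes, against 0% of all genes. For the difference between the EAE responses 0 of 36 were called, also against 0% of all genes.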

How the data were processed

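Total RNA of mouse spinal cord was sequenced in 12 libraries. The authors deposited 1 table of raw counts, whole reads per gene. Per the submitters' processing notes, HISAT2 2.0.5 aligned the reads to mm10 and featureCounts 1.5.0-p3 counted them. Strand setting, multimapping reads and annotation release are not given in the sources used here, which leaves overlapping genes and copies such as the Il11ra2 entries uncertain. The number of value columns without a sample was 0.

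The counts were tested with edgeR 4.0.16 (quasi-likelihood F test, TMM scaling, edgeR's filter on low counts, no covariate besides the group; limma 3.58.1, R 4.3.3) across all genes, with Benjamini-Hochberg adjustment and a threshold of 0.05. The EAE responses and their difference came from all 12 libraries, and the genotype comparisons from the 6 libraries of a state. SE were derived from the fold change and its F statistic. TPM used the deposited gene lengths. Folds against a group without counts were set against 3 counts in that group together, a floor that covers counting error only. Libraries of 15128913 to 17592105 counts leave members below about 0.2 CPM to counting error. p-values measure the spread between these libraries. The scripts were tested on simulated data. Alternatives were DESeq2's size factors and Wald test (DESeq2 1.42.0), limma voom with sample weights, no filter, the replicate number as a block, other libraries in the fit and omitted libraries.

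Members, role and gene lists, tests and alternatives were chosen with earlier results of these data known. Within each role, per-library values were to be given for up to 6 tested members with the smallest p for EAE in control mice, up to 4 with the smallest p between genotypes at EAE, 16 members listed by name, and any member of a comparison with 10 or fewer calls. Further genes are named after their values were seen.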

Additional observations from a re-analysis of the deposited data

Results flagged for a closer look

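The genotype difference of Il1b had opposite directions in the 2 states. The difference in mean Il1b, cKO minus control, was -58.5 CPM at EAE and 0.425 CPM at basal (TMM-normalised), and in each state no cKO library overlapped a control library. Without cKO basal 2, which had 1.09 CPM, the basal difference was 0.129 CPM. The basal values rest on 4, 12 and 3 counts in cKO basal 1, 2 and 3 and on 1, 2 and 1 counts in control basal 1, 2 and 3. The difference between the EAE responses of Il1b was -4.66 on the log2 scale (SE 2.00, adjusted p = 0.547 by edgeR's quasi-likelihood test), so it did not pass the threshold.

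Il1bos, a noncoding gene on the strand opposite Il1b that belongs to no comparison here, had 30 counts in the 6 EAE libraries and 13 in the 6 basal libraries. They were 4, 4 and 1 in cKO EAE, 4, 7 and 10 in control EAE, 3, 0 and 4 in cKO basal and 0, 5 and 1 in control basal. Without the strand setting of the counting, reads of Il1b and Il1bos cannot be told apart.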

How the results depend on the processing

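Counts of called members moved with the test and with single libraries, as did those of all genes (shares of all genes in brackets). For EAE against basal in control mice (34 called, 17.1%), the replicate block gave 22 (13.5%) and leaving out single libraries 17 to 21 (9.04% to 10.9%). For EAE against basal in cKO mice (0 called, 0.0376%), no filter gave 13 (1.42%), DESeq2's Wald test 22 (6.66%) and limma voom 29 (19.6%). The fit without cKO basal 2 and cKO EAE 3 gave 29 (14.3%), and single omissions 0 to 21 (0.0262% to 5.63%). For cKO against control at EAE (4 called, 7.67%), DESeq2's size factors gave 2 (5.74%), the replicate block 0 (0%) and the fit of all 12 libraries 0 (0%). DESeq2's Wald test gave 13 of 51 (23.1%) and limma voom 20 of 51 (32.3%). The fit without cKO EAE 3 gave 23 of 53 (18.2%), and single omissions 0 to 23 (0% to 18.6%). At basal every alternative gave 0 (at most 0.00584%), single omissions 0 to 0 (0%). For the difference between the EAE responses (0 called, 0%), limma voom gave 7 (16.1%) and single omissions 0 to 0 (0%). The replicate numbers mark nothing shared in the labels. The deviations of same-numbered libraries had correlations of -0.221 to 0.129 between genotypes at EAE. They were 0.00282 to 0.0714 for EAE against basal in control and 0.0268 to 0.105 in cKO mice. Between genotypes at basal they were -0.458, -0.358 and 0.371 for replicates 1, 2 and 3. Deviations from a group mean sum to 0, so a library that stands apart, such as cKO basal 2, shifts those of the others in its group. These correlations therefore cannot tell whether libraries of the same number share anything. The block results are given as an alternative. Of the single-gene alternatives, 1550 stayed on their side of the threshold, 126 passed newly, 105 were lost and 1 reversed, Il3ra for EAE in cKO mice without cKO basal 2 and cKO EAE 3, at 1.24. Among those that stayed, 69 uncalled values changed sign. Scaling by library totals left 124 of 124 levels within 1 SD. Causes were not tested. Depth limits the 32 untested members, and a missed threshold does not show that levels were alike.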
